A study of Mus musculus with 82 samples.

Results

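The CCR6 inhibitor IDOR-1117-2520 was given from day 0 to mice whose ears were painted with imiquimod, and 6 libraries of such ears were compared with 6 libraries of ears given imiquimod alone. These 12 libraries, of 82 in the whole series, are the ones whose labels name a drug start on day 0 or imiquimod with no drug in the experiment that varied the start day. The tissue was a punch of the right ear, all mice were female C57BL/6J Rj, and the labels name no transgene or deletion in any group. Both groups received cream with 5% imiquimod on the ears once daily from day 0 to day 7, which made 8 applications, and both carry a treatment time of day 8. The drug was dissolved in the drinking water. The treatment label of the drug group gives day 0 as the start and writes the compound as IDOR-1117-2520C, while the protocol text shared by all samples states that dosing began at least 1 day before imiquimod, so the first day of exposure is not settled by the labels. Further groups of 6 libraries each were sham ears, which the labels also call vehicle, and ears with imiquimod and the drug started on day 3 or on day 5. A separate time course, with its own sham, imiquimod and drug groups of 6 libraries each at day 8, served as the outside comparison. Whether each library came from its own mouse is not stated, and the p-values then reflect only the variation among these libraries, which may be technical.

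CCR6 is a chemokine receptor carried by gamma delta T cells that make IL-17, Th17 cells, some B cells and dendritic cells, and CCL20, made by stimulated keratinocytes, is its chemokine ligand. Imiquimod activates the endosomal receptor TLR7 and, painted on mouse skin, gives a scaly, neutrophil-rich inflammation driven by IL-23 and IL-17 that is widely used as a model of psoriasis. IL-17A, IL-17F and IL-22 act on keratinocytes, which answer with antimicrobial proteins, neutrophil chemokines, stress keratins and a change of their differentiation program. An ear punch also holds cartilage, muscle, nerve, fat and sebaceous glands.

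The 30 libraries of the start-day experiment held 24.1 to 35.5 M estimated counts (M, 1e6) and 24438 to 26107 detected genes. Those with the drug from day 0 were shallower (25.4 to 29.9 M) than those with imiquimod alone (29 to 35.5 M), and their share of mitochondrial counts was higher (3.95 to 4.33% against 3.69 to 4.02%). Levels are given as CPM (counts per 1e6 after TMM scaling), which allows a gene to be compared between libraries but not with another gene, since it is not divided by length. Changes are log2 fold changes with their standard errors, drug minus imiquimod unless another pair is named, and a gene is said to have risen or fallen where the edgeR adjusted p was under 0.05. The bulk libraries cannot tell fewer cells of a type from less RNA per cell. Genes of the Sprr2, Stfa, Cstdc, Krt6, Serpina3, Serpinb3, Skint, Lce and haemoglobin families have close copies, and their values as single genes are uncertain.

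Ears with the drug from day 0 differed from ears with imiquimod alone in 6466 of 18434 tested genes (35.1%). Of these, 3357 rose (18.2% of those tested) and 3109 fell (16.9%), and 577 (3.13%) changed by a log2 of at least 1, with 321 higher (1.74%) and 256 lower (1.39%). Most changes were therefore smaller than 2-fold. The shares of 18.2% that rose and 16.9% that fell are the background for the counts of gene lists below. On the leading principal component, which held 62.4% of the variance, the drug libraries lay from 7.21 to 26.5 and the imiquimod libraries from 40.5 to 55.4, with sham ears from -121 to -112. On the next component (5.09%) the drug libraries lay from 3.05 to 21.9 and the imiquimod libraries from -44.2 to -18.0. The groups were apart on both components. Counts of the 30 libraries thinned at random to the total of the shallowest one, an alternative chosen after seeing the depths, gave 6278 called genes.

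Transcripts of the target receptor and of the effector cytokines Il17a, Il17f and Il22 fell with the drug, while that of the ligand did not pass the test. Ccr6 ran from 1.24 to 1.9 CPM (median 1.53) with imiquimod alone, from 0.488 to 0.928 CPM with the drug and from 0.198 to 0.644 CPM in sham ears. Every drug library lay below every imiquimod library, and the transcript fell by 1.20 ± 0.25 (adjusted p 0.000301). Ccl20 ran from 3.09 to 12.9 CPM (median 8.81) with imiquimod and from 5.07 to 18.4 CPM (median 9.27) with the drug. These groups overlapped, and the difference (0.32 ± 0.37, adjusted p 0.55) was within the spread between libraries. Sham ears held less Ccl20 than any treated library, from 0.348 to 0.768 CPM.

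Of 13 genes of the IL-23 and IL-17 pathway, 5 fell and 1 rose, with a median of -0.26 against 0.01 over all tested genes. Il17f, a cytokine of IL-17-producing cells, ran from 3.86 to 6.18 CPM (median 4.82) with imiquimod and from 0.873 to 3.37 CPM (median 2.22) with the drug. The groups did not overlap, and Il17f fell by 1.18 ± 0.27 (adjusted p 0.001). Il22, which thickens the epidermis, ran from 2.44 to 5.14 CPM (median 3.33) with imiquimod and from 0.793 to 2.68 CPM (median 1.65) with the drug, and fell by 1.11 ± 0.27 (adjusted p 0.00169) although the highest drug library reached into the imiquimod range. Il17a was scarce in every library, from 0.354 to 1.2 CPM with imiquimod and 0.119 to 0.391 CPM with the drug, and fell by 1.39 ± 0.39 (adjusted p 0.00562). Il17ra, the receptor chain shared by IL-17 family cytokines, fell by 0.45 ± 0.06 (adjusted p 4.65e-07) and Il10rb, a chain of the IL-22 receptor, fell by 0.26 ± 0.05 (adjusted p 0.000382). The receptor chains Il17rc (-0.10 ± 0.05, adjusted p 0.137), Il17re (-0.10 ± 0.07, adjusted p 0.287) and Il22ra1 (-0.10 ± 0.09, adjusted p 0.429) did not pass, nor did Il17c, the IL-17 family member made by keratinocytes (0.10 ± 0.38, adjusted p 0.875).

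Il23a, the specific subunit of IL-23, ran from 0.684 to 1.41 CPM (median 1.18) with imiquimod and from 0.515 to 0.907 CPM (median 0.738) with the drug, and did not pass (-0.63 ± 0.27, adjusted p 0.0656). It passed under 4 of the 19 alternative settings tried, among them the fit of only the 12 compared libraries (adjusted p 0.0333) and the fit without imiquimod library 12 (adjusted p 0.0347). The other subunit Il12b (-0.23 ± 0.41, adjusted p 0.714) and the receptor Il23r (-1.02 ± 0.42, adjusted p 0.0583) did not pass.

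Among 9 tested genes linked to gamma delta T cells that make IL-17, 4 fell and 3 rose (median -0.51). Scart2, a scavenger receptor of these cells, ran from 6.76 to 14.6 CPM (median 9.05) with imiquimod and from 3.17 to 5.81 CPM (median 4.13) with the drug, with no overlap, and fell by 1.16 ± 0.24 (adjusted p 0.000328). The kinase Blk fell by 1.43 ± 0.33 (adjusted p 0.000853) and Il1r1 fell by 0.51 ± 0.08 (adjusted p 4.72e-06), beside Ccr6. Members that rose included Zbtb16 (0.74 ± 0.11, adjusted p 5.59e-06) and Maf (0.38 ± 0.09, adjusted p 0.00119), which are transcription factors also present in other cells, and sham ears had more Zbtb16 than either group. The receptor gene segments Trgv4 and Trgv6 were too low to test, with 49 and 22 counts of Trgv4 and 2 and 15 counts of Trgv6 summed over the 6 imiquimod and the 6 drug libraries.

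Neutrophil genes fell together. All 11 tested genes of the neutrophil list fell, with a median of -1.29, against 16.9% of all tested genes that fell. Csf3r, the receptor for the neutrophil growth factor G-CSF, ran from 55.4 to 101 CPM (median 67.7) with imiquimod, 16.8 to 42.7 CPM (median 23.5) with the drug and 0.978 to 2.05 CPM in sham ears. The groups did not overlap, and Csf3r fell by 1.46 ± 0.22 (adjusted p 1.48e-05), a 2.75-fold lower level. The collagenase Mmp8 fell by 1.32 ± 0.25 (adjusted p 0.000114), the gelatinase Mmp9 fell by 1.43 ± 0.18 (adjusted p 1.01e-06), the resistin-like Retnlg fell by 1.58 ± 0.33 (adjusted p 0.000348) and the receptor Trem1 fell by 1.24 ± 0.22 (adjusted p 5.65e-05). The smallest changes were in the chemokine receptor Cxcr2 (-0.52 ± 0.12, adjusted p 0.00133) and the decoy receptor Il1r2 (-0.24 ± 0.07, adjusted p 0.00908), which sham ears expressed at 72 to 86.4 CPM, above both other groups. The defining marker Ly6g was too low to test, with 47 counts summed over the imiquimod libraries, 9 over the drug libraries and 0 in sham.

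The signals that draw neutrophils fell as well, in 8 of 8 tested genes with a median of -1.43. Cxcl5, a chemokine for the receptor CXCR2, ran from 19.6 to 35.9 CPM (median 29.2) with imiquimod and from 5.51 to 11.3 CPM (median 8.21) with the drug. The lowest imiquimod library held more Cxcl5 than the highest drug library, and the gene fell by 1.80 ± 0.31 (adjusted p 6.98e-05). Cxcl2 ran from 26.9 to 58.7 CPM (median 39.5) with imiquimod and from 5.95 to 24.5 CPM (median 16.4) with the drug, again without overlap, and fell by 1.47 ± 0.34 (adjusted p 0.0012). Csf3, which encodes G-CSF itself, ran from 0.779 to 1.91 CPM with imiquimod and 0.0407 to 0.637 CPM with the drug, and fell by 1.78 ± 0.38 (adjusted p 0.000421). The platelet chemokine Ppbp fell by 1.55 ± 0.36 (adjusted p 0.00103), Ccl3 fell by 1.36 ± 0.33 (adjusted p 0.0018) and Ccl4 fell by 1.37 ± 0.34 (adjusted p 0.00228), while Cxcl1 fell by 1.0 ± 0.32 (adjusted p 0.0166) with overlapping groups. Csf2, which encodes GM-CSF, was too low to test, with 33 and 34 counts summed over the imiquimod and drug libraries.

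Antimicrobial and acute-phase genes fell in 12 of 14 tested cases (median -1.17). S100a9, a subunit of calprotectin, ran from 3819 to 5166 CPM (median 4527) with imiquimod, 1052 to 2558 CPM (median 2042) with the drug and 0.201 to 1.45 CPM in sham ears. Every drug library was below every imiquimod library and far above every sham library, and S100a9 fell by 1.24 ± 0.22 (adjusted p 9.33e-05). Its partner S100a8 fell by 1.20 ± 0.23 (adjusted p 0.000171). Lcn2, which binds bacterial siderophores, ran from 107 to 171 CPM (median 133) with imiquimod and from 33.1 to 82.4 CPM (median 66.5) with the drug, and fell by 1.13 ± 0.20 (adjusted p 6.99e-05) without overlap. The beta-defensin Defb4 ran from 23.2 to 40.3 CPM (median 25.4) with imiquimod and from 6.35 to 14.8 CPM (median 9.52) with the drug, and fell by 1.50 ± 0.18 (adjusted p 5.33e-07). Defb3 fell by 1.57 ± 0.21 (adjusted p 2.42e-06), the acute-phase Saa3 fell by 1.84 ± 0.33 (adjusted p 9.99e-05) and the lectin Reg3g fell by 1.70 ± 0.39 (adjusted p 0.00113). The only member that rose was the beta-defensin Defb6, which ran from 123 to 162 CPM with imiquimod and 179 to 211 CPM with the drug (0.49 ± 0.07, adjusted p 7.44e-06), and Saa1 did not pass (0.06 ± 0.29, adjusted p 0.893).

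Keratinocytes of inflamed skin switch on stress keratins and precursors of the cornified envelope, and all 20 tested genes of that kind fell, with a median of -1.01. Krt6a ran from 6147 to 8397 CPM (median 7603) with imiquimod, 2199.6 to 3679.8 CPM (median 2969) with the drug and 42.8 to 89.2 CPM in sham ears. The 3 groups were fully apart, and Krt6a fell by 1.34 ± 0.18 (adjusted p 3.04e-06). Krt16, its partner keratin, ran from 7656 to 8915 CPM (median 8532) with imiquimod and from 4365 to 5293 CPM (median 4729) with the drug, and fell by 0.80 ± 0.27 (adjusted p 0.021). That call did not hold in DESeq2 (-0.82, adjusted p 0.0566), although the groups did not overlap. Krt17 fell by 0.59 ± 0.13 (adjusted p 0.000749) with overlap in the highest drug library. The small proline-rich Sprr2f fell by 1.55 ± 0.27 (adjusted p 6.5e-05) and the stefin Stfa2 fell by 1.42 ± 0.18 (adjusted p 1.32e-06), while Stfa3 changed least (-0.35 ± 0.13, adjusted p 0.0395). Outside that list, Sprr2i fell by 1.71 ± 0.26 (adjusted p 1.23e-05) and the pseudogene Sprr2j-ps fell by 2.03 ± 0.26 (adjusted p 1.95e-06). With each of the 12 libraries left out in turn, 18 to 20 of the 20 listed genes fell.

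**Figure D1:**
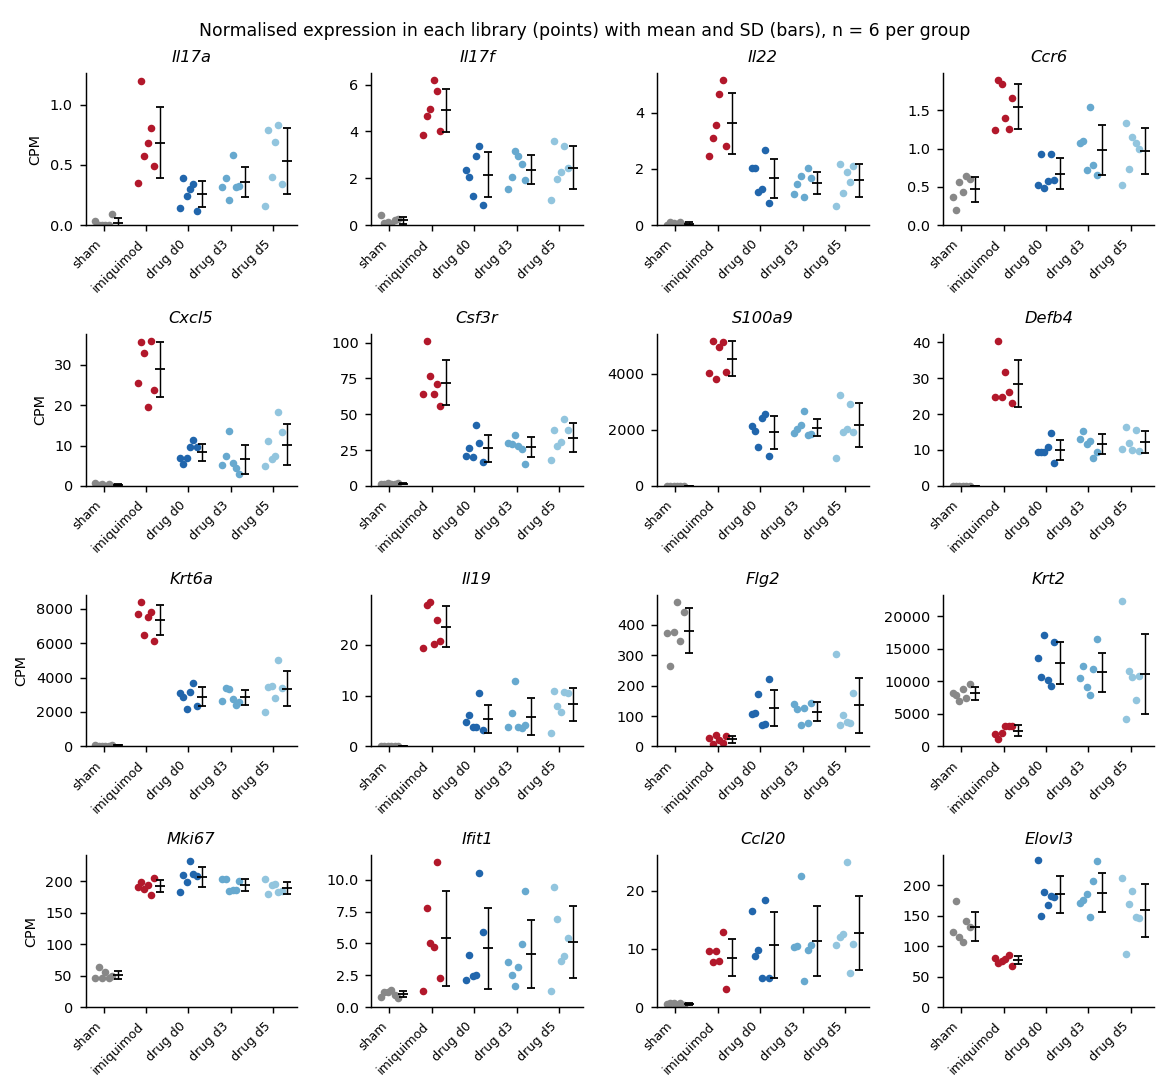
Normalised expression (CPM, y axis from 0) of 16 genes in each library of the 5 start-day groups (x axis, 6 points per group), with the mean and SD beside the points. For Krt6a, S100a9, Csf3r and Defb4 the libraries with the drug from day 0 lie between sham and imiquimod, Flg2 and Krt2 are lowest with imiquimod alone, and Mki67, Ifit1 and Ccl20 overlap between imiquimod alone and the drug from day 0.

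Cytokines of the IL-1, IL-36, IL-20, IL-6 and TNF families did not move as a block, with 8 of 17 lower and 2 higher (median -0.41). Il19, an IL-20 family cytokine that keratinocytes and myeloid cells make, had the largest fall among the well expressed genes (log2 CPM averaging 1 or more). It ran from 19.4 to 28.5 CPM (median 22.9) with imiquimod, from 3.21 to 10.6 CPM (median 4.39) with the drug and from 0 to 0.0632 CPM in sham ears. The groups did not overlap, and Il19 fell by 2.11 ± 0.32 (adjusted p 1.11e-05), a 4.32-fold lower level. Its scarcer relative Il24 ran from 1.2 to 2.37 CPM with imiquimod and 0.101 to 1.03 CPM with the drug, and fell by 2.31 ± 0.56 (adjusted p 0.00175). Il1b ran from 49.8 to 107 CPM (median 86.3) with imiquimod and from 15.9 to 51.3 CPM (median 32.8) with the drug, and fell by 1.35 ± 0.31 (adjusted p 0.00117) with 1 drug library inside the imiquimod range. Il33, an alarmin of epithelium and stroma, ran from 147 to 225 CPM with imiquimod and 75.4 to 107 CPM with the drug, close to the 79.6 to 91 CPM of sham ears, and fell by 1.02 ± 0.13 (adjusted p 2.18e-06). Oncostatin M (Osm) fell by 1.08 ± 0.25 (adjusted p 0.000964) and Lif fell by 0.70 ± 0.19 (adjusted p 0.00421).

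The IL-36 cytokines, which keratinocytes release, changed little. Il36a ran from 146 to 205 CPM (median 182) with imiquimod and from 109.9 to 153 CPM (median 146) with the drug, and fell by 0.35 ± 0.09 (adjusted p 0.00402). Il36b (-0.04 ± 0.08, adjusted p 0.726), Il36g (-0.20 ± 0.09, adjusted p 0.0971) and the antagonist Il36rn (0.07 ± 0.08, adjusted p 0.522) did not pass, nor did Il1a (-0.41 ± 0.22, adjusted p 0.145), Tnf (-0.30 ± 0.18, adjusted p 0.205) or Il6 (-0.98 ± 0.39, adjusted p 0.0522). The members that rose were Il18, an epithelial IL-1 family cytokine (0.60 ± 0.15, adjusted p 0.00209), and Tslp, an alarmin that acts on dendritic cells (0.74 ± 0.19, adjusted p 0.00236).

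Regulators downstream of these cytokines fell in 9 of 12 cases, with a small median of -0.26. The STAT3 feedback inhibitor Socs3 ran from 83.6 to 127 CPM with imiquimod and 47 to 67.1 CPM with the drug, and fell by 0.83 ± 0.14 (adjusted p 5.52e-05). Socs1 fell by 0.81 ± 0.13 (adjusted p 2.3e-05) and Stat3 fell by 0.21 ± 0.04 (adjusted p 0.00038). Nfkbiz, the atypical NF-kB regulator induced by IL-17, changed less, and fell by 0.29 ± 0.10 (adjusted p 0.0237) with overlapping groups. Traf3ip2, the adaptor of the IL-17 receptor also called Act1, was the member that rose (0.15 ± 0.04, adjusted p 0.00569). Of 7 genes for the EGF receptor and its ligands, 3 fell and 1 rose: Tgfa fell by 0.67 ± 0.11 (adjusted p 4.28e-05), Areg fell by 1.01 ± 0.33 (adjusted p 0.0191) and Hbegf fell by 0.74 ± 0.22 (adjusted p 0.0108), and Btc rose by 0.72 ± 0.25 (adjusted p 0.0265). Nrg1, a ligand of the related ERBB receptors, ran from 12.9 to 25.1 CPM with imiquimod and 4.96 to 8.1 CPM with the drug, and fell by 1.56 ± 0.18 (adjusted p 4.25e-07).

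Among the 12 well expressed genes with the largest falls, the others not yet described were Entpd3, an ectonucleotidase (-1.91 ± 0.22, adjusted p 1.68e-07), Ptx3, a soluble pattern receptor (-1.67 ± 0.33, adjusted p 0.000237), the interferon-induced Ifitm1 (-1.55 ± 0.21, adjusted p 2.47e-06) and Cd300lf, a receptor of myeloid cells (-1.53 ± 0.26, adjusted p 5.81e-05). None of the 4 overlapped between the groups. They were picked as large falls in these same libraries, so the lack of overlap adds no separate support. Ptx3 with the drug (1.99 to 4.88 CPM) was in the range of sham ears (3.93 to 6.3 CPM) or below it, and imiquimod alone gave 6.38 to 20.3 CPM.

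Genes of the upper epidermis moved the opposite way. Of 20 tested genes of suprabasal and cornifying keratinocytes, 12 rose and 2 fell (median 0.67). As a whole this list was already above sham with imiquimod alone (12 higher and 6 lower, median 0.87, against 38.1 and 39.9% of all tested genes) and was further above it with the drug (16 higher and 4 lower, median 1.55). Its summed level ran from 18604 to 24687 CPM in sham ears, 32593 to 51959.8 CPM with imiquimod and 59455 to 84326 CPM with the drug. Members differed in where sham lay. Krt2, a keratin of the upper spinous and granular layers, ran from 1099.8 to 3221 CPM (median 2558) with imiquimod, 9338 to 17152 CPM (median 12146) with the drug and 6996 to 9611 CPM in sham ears. The lowest drug library held more Krt2 than the highest imiquimod library, and Krt2 rose by 2.41 ± 0.30 (adjusted p 1.27e-06), a 5.31-fold higher level. Flg2, a filaggrin-like protein of the cornified layer, ran from 9.11 to 36.4 CPM (median 23) with imiquimod, 71.2 to 222 CPM (median 109.9) with the drug and 266 to 476 CPM in sham ears, and rose by 2.46 ± 0.39 (adjusted p 2.58e-05). Krt24 ran from 0.633 to 4.53 CPM (median 1.45) with imiquimod and from 10.8 to 26.3 CPM (median 15.2) with the drug and rose by 2.99 ± 0.59 (adjusted p 0.000304), while sham ears held 162 to 215 CPM, far above both. Krt10 ran from 9204 to 16319.7 CPM with imiquimod and 20137 to 29609.8 CPM with the drug, and only the drug range lay wholly above the 7286 to 9814 CPM of sham ears; it rose by 0.80 ± 0.13 (adjusted p 3.94e-05). Loricrin (Lor) ran from 720.5 to 1488 CPM with imiquimod, 1647 to 2623 CPM with the drug and 571 to 1026 CPM in sham ears, and rose by 0.82 ± 0.18 (adjusted p 0.000732), and Lce1m rose by 1.25 ± 0.26 (adjusted p 0.000387).

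Not all of this program moved. Krt1, the partner of Krt10, did not pass (0.03 ± 0.10, adjusted p 0.853), nor did involucrin (Ivl, -0.06 ± 0.14, adjusted p 0.772), Casp14 (-0.11 ± 0.10, adjusted p 0.425) or Rptn (-0.28 ± 0.14, adjusted p 0.126). Tgm3, a cross-linking enzyme of the envelope, fell by 0.63 ± 0.06 (adjusted p 2.01e-08) and the desmosomal cadherin Dsg1b fell by 0.39 ± 0.06 (adjusted p 1.14e-05), whereas its copy Dsg1a rose by 0.52 ± 0.09 (adjusted p 4.62e-05). Krt77, another keratin, ran from 3.89 to 8.7 CPM (median 5.23) with imiquimod and from 6.39 to 27.1 CPM (median 9.32) with the drug, and rose by 1.18 ± 0.40 (adjusted p 0.023). Its call depended on single libraries, since the adjusted p was 0.101 without drug library 25, 0.0751 without drug library 30 and 0.0506 without imiquimod library 7.

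All 11 Skint genes rose, with a median of 1.30. With each of the 12 libraries left out in turn, 10 to 11 of them rose. Skint proteins are butyrophilin-like proteins of the epidermis and thymus, and Skint1 is needed to select the gamma delta T cells that live in mouse epidermis. Skint9 ran from 3.15 to 8.34 CPM (median 5.62) with imiquimod, 12.5 to 25.7 CPM (median 19.9) with the drug and 39.3 to 52.6 CPM in sham ears, and rose by 1.85 ± 0.25 (adjusted p 2.77e-06). Skint10 ran from 4.78 to 11.8 CPM with imiquimod and 20.2 to 29.3 CPM with the drug, a range above the 13.8 to 19.3 CPM of sham ears, and rose by 1.51 ± 0.17 (adjusted p 1.69e-07). Skint1 rose by 1.09 ± 0.15 (adjusted p 1.73e-06), and Skint3 (0.62 ± 0.12, adjusted p 0.000291) and Skint2 (0.71 ± 0.28, adjusted p 0.0469) rose least, with overlapping groups. Of the receptor genes listed for the epidermal gamma delta T cells, none rose past the threshold. The variable segments Trgv5 (1.18 ± 0.48, adjusted p 0.0548) and Trdv4 (0.38 ± 0.29, adjusted p 0.34) did not pass. The constant segment Trgc1 (0.06 ± 0.24, adjusted p 0.885) did not pass either, while Trdc, also constant, fell by 0.59 ± 0.20 (adjusted p 0.0196). Constant segments are shared with other gamma delta T cells, so the fall of Trdc cannot be assigned to the epidermal ones. All 4 genes were below sham in both groups.

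Serpins split by member, with 4 of 15 higher and 5 lower. Serpina3b ran from 0.348 to 1.24 CPM with imiquimod, 2.52 to 7.65 CPM with the drug and 153 to 183 CPM in sham ears, and rose by 2.43 ± 0.36 (adjusted p 8.76e-06). Serpinb6d rose by 2.38 ± 0.35 (adjusted p 9.31e-06) and Serpina3j rose by 1.94 ± 0.38 (adjusted p 0.000247). Serpinb3d fell by 1.97 ± 0.37 (adjusted p 7.97e-05), Serpinb3a fell by 0.56 ± 0.13 (adjusted p 0.001) and Serpina3n fell by 0.72 ± 0.12 (adjusted p 2.59e-05). Other genes among the 12 highest were Cngb1, a subunit of a cyclic nucleotide-gated channel (2.40 ± 0.30, adjusted p 1.13e-06), the epidermal lipoxygenase Alox12e (2.09 ± 0.26, adjusted p 1.09e-06), the cilia gene Cfap157 (2.45 ± 0.29, adjusted p 6.65e-07), the hair keratin-associated Krtap19-2 (2.33 ± 0.41, adjusted p 7.82e-05), Hsd3b6, an enzyme of steroid synthesis (2.31 ± 0.22, adjusted p 2.48e-08), Serpinb13 (2.04 ± 0.23, adjusted p 9.92e-08), and the antisense transcript Hoxa11os (2.71 ± 0.40, adjusted p 7.85e-06). The strand setting of the counting is not given in the sources used here, so reads of Hoxa11os and of genes it overlaps cannot be told apart. None of these genes among the 12 highest overlapped between the groups. They too were picked for their change in the same libraries, so this adds no separate support.

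Basal keratinocyte genes split evenly, with 5 of 11 higher and 5 lower. Krt15, a keratin of quiescent basal and follicle cells, ran from 77 to 142 CPM with imiquimod, 179 to 258 CPM with the drug and 1171 to 1562 CPM in sham ears, and rose by 1.18 ± 0.17 (adjusted p 5.34e-06). Dystonin (Dst) rose by 0.58 ± 0.08 (adjusted p 2.81e-06) and Col17a1 rose by 0.43 ± 0.07 (adjusted p 2.04e-05), both parts of the hemidesmosome. Krt14, the main keratin of the basal layer, fell by 0.38 ± 0.07 (adjusted p 4.37e-05). Genes of barrier lipid synthesis fell in 7 of 13 cases and rose in 3, by small amounts: the ceramide synthase Cers3 fell by 0.34 ± 0.08 (adjusted p 0.00105) and the elongase Elovl4 rose by 0.37 ± 0.06 (adjusted p 3.34e-05).

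The sequences before the start sites of 4 of these genes are shown to place the changed genes beside the binding motifs of factors known in IL-17 responses and epidermal differentiation. They are the largest fall of a well expressed gene (Il19), an antimicrobial gene that fell (Lcn2) and the 2 cornified-layer genes with large rises (Krt24, Flg2), and were taken from RefSeq on GRCm38.p6, with 250 bases before and 50 bases after the start. The deposited counts used another build, GRCm39. Capitals mark matches on either strand to the AP-1 motif TGANTCA, the C/EBP motif TTNCNNAA and the NF-kB motif.
Il19: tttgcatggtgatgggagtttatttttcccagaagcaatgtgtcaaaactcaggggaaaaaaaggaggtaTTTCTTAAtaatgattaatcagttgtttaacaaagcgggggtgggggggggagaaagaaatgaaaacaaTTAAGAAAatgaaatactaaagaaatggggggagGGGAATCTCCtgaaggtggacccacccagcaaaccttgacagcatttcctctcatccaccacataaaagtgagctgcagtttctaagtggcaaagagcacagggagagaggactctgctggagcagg
Lcn2: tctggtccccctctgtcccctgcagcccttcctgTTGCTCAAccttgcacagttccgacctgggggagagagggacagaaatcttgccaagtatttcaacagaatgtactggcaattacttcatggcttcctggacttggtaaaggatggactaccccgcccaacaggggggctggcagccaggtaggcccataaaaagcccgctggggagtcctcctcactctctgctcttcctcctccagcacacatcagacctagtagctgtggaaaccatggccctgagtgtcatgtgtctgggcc
Krt24: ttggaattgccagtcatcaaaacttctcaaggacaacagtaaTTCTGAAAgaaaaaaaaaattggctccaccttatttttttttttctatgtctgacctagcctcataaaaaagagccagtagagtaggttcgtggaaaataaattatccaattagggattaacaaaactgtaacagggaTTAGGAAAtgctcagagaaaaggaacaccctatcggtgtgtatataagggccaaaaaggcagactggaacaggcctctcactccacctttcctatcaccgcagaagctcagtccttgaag
Flg2: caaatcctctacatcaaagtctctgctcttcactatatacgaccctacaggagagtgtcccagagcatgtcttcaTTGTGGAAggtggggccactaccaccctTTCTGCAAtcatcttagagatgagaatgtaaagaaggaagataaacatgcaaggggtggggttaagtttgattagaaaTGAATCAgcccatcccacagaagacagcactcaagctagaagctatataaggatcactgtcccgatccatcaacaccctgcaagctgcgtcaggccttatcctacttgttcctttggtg
They lie at chr1:130940066-130940365 (minus strand), chr2:32387690-32387989 (minus), chr11:99285213-99285512 (minus) and chr3:93197023-93197322 (plus). The Il19 window holds an NF-kB match beginning at position -77 and C/EBP matches at -180 and -111, counted from the start site, and the Flg2 window holds an AP-1 match at -69. C/EBP matches lie at -216 in Lcn2, at -208 and -70 in Krt24 and at -175 and -147 in Flg2.

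These motifs are common in windows of this size. Over 27025 RefSeq promoters (the first listed of each gene), 7.93% held the AP-1 motif, 40.7% the C/EBP motif and 8.18% the NF-kB motif. Of the 12 genes that fell most, 9 had a promoter in the table, and 3 of these held the AP-1 motif (Entpd3, Sprr2f and Sprr2i), 8 the C/EBP motif and 2 the NF-kB motif (Il19 and Ptx3). Of the 12 that rose most, 10 had a promoter, and 1 held the AP-1 motif (Flg2), 6 the C/EBP motif and 0 the NF-kB motif. A match describes the letters only, and binding was not measured.

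Sebaceous gland genes rose in 11 of 12 cases (median 1.06). Far2, a fatty acyl reductase that makes wax alcohols, ran from 59.2 to 79.6 CPM (median 67) with imiquimod, 172 to 231 CPM (median 193) with the drug and 392 to 482 CPM in sham ears, and rose by 1.58 ± 0.14 (adjusted p 1.82e-08). Scd1, the desaturase of sebum lipids, ran from 1016 to 1274 CPM with imiquimod, 1871 to 2935 CPM with the drug and 5828 to 6954 CPM in sham ears, and rose by 1.08 ± 0.13 (adjusted p 7.79e-07). The follicle keratin Krt79 ran from 357 to 484 CPM with imiquimod, 819 to 1085 CPM with the drug and 589 to 735 CPM in sham ears, so that sham lay between the treated groups, and rose by 1.12 ± 0.10 (adjusted p 2.01e-08). The elongase Elovl3 ran from 67.6 to 85.7 CPM with imiquimod and 150.1 to 241 CPM with the drug, the latter overlapping the 107 to 174 CPM of sham ears, and rose by 1.27 ± 0.16 (adjusted p 1.29e-06).

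Genes of the deeper ear also rose, by smaller amounts. All 12 skeletal muscle genes rose (median 0.59), as did 9 of 11 adipocyte genes (0.62), 8 of 12 cartilage genes (0.42) and 7 of 8 Schwann cell genes (0.25), against 18.2% of all tested genes that rose. With single libraries left out in turn, 11 to 12 of the muscle genes rose. The fast myosin Myh4 ran from 96.1 to 174 CPM (median 127) with imiquimod, 221 to 292 CPM (median 265) with the drug and 1044 to 1259 CPM in sham ears, and rose by 0.97 ± 0.13 (adjusted p 3.32e-06). The muscle creatine kinase Ckm rose by 0.71 ± 0.08 (adjusted p 1.59e-07), the adipocyte carbonic anhydrase Car3 rose by 0.84 ± 0.10 (adjusted p 8.68e-07) and the cartilage chondromodulin Cnmd rose by 0.76 ± 0.10 (adjusted p 1.83e-06). For each of these 4 genes the drug libraries lay above every imiquimod library and below every sham library. The share of each tissue in a punch was not measured, and its part in these changes was not tested.

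**Figure D2:**
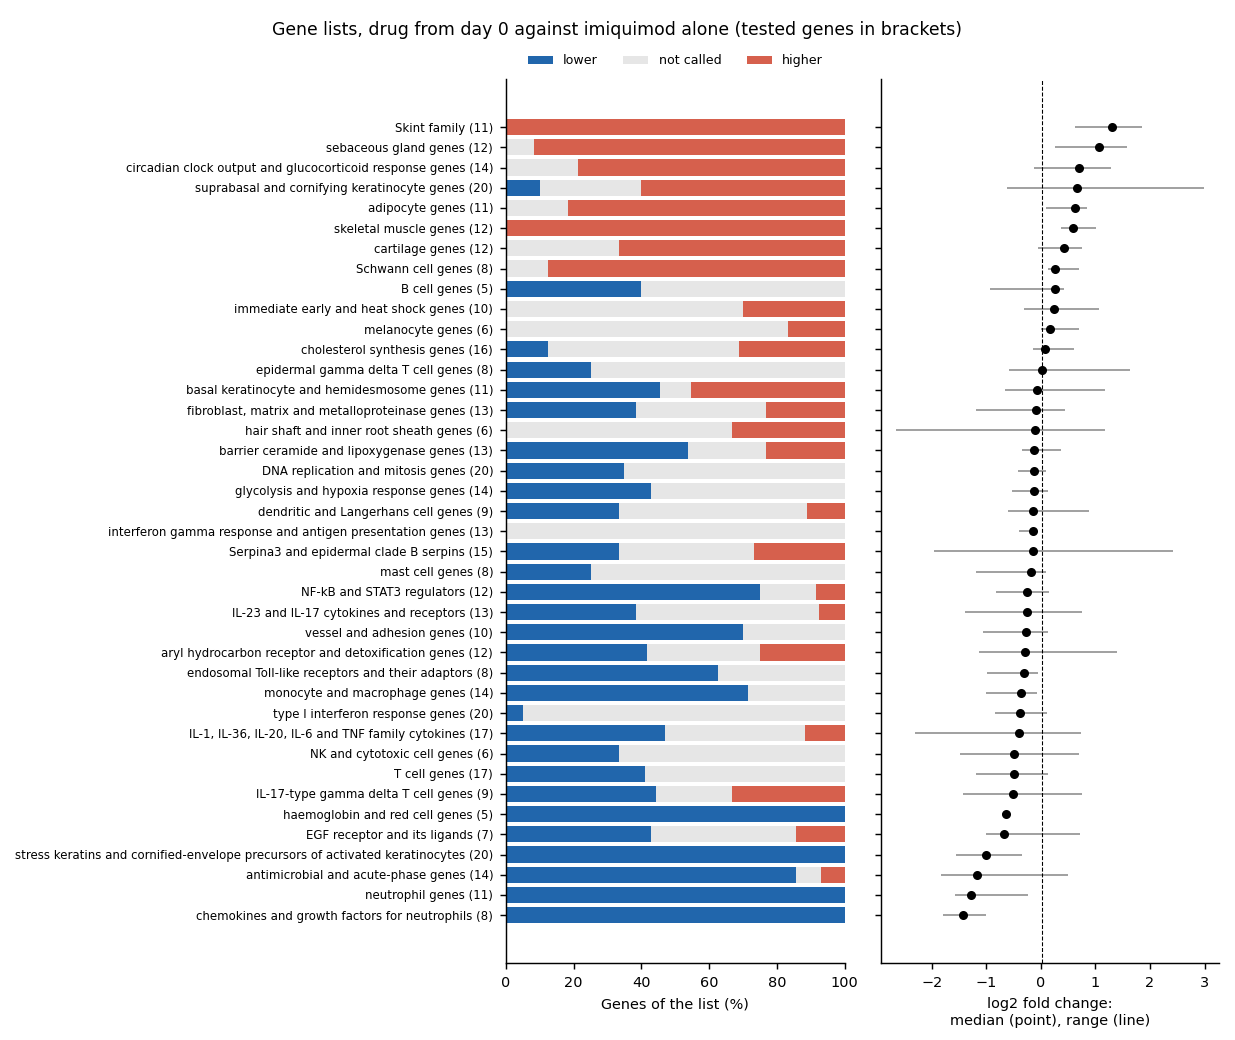
For 40 gene lists with at least 5 tested genes, the share of tested genes that fell, were not called or rose (left, percent) and the median log2 fold change with its range (right, dashed line at the median of all genes, 0.01), drug from day 0 against imiquimod alone. Neutrophil, neutrophil-attractant activated keratinocyte and red cell lists are wholly lower, Skint and skeletal muscle lists are wholly higher, and the 13 interferon gamma response and antigen presentation genes hold no call.

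Monocyte and macrophage genes fell in 10 of 14 cases (median -0.36). The scavenger receptor Cd163 ran from 106 to 131 CPM (median 116) with imiquimod and from 61.6 to 84 CPM (median 79) with the drug, without overlap, and fell by 0.62 ± 0.10 (adjusted p 2.71e-05). The mannose receptor Mrc1 fell by 0.60 ± 0.11 (adjusted p 0.000179) and the monocyte chemokine receptor Ccr2 fell by 0.66 ± 0.16 (adjusted p 0.00152). The general macrophage marker Adgre1 did not pass (-0.08 ± 0.16, adjusted p 0.75). Without single libraries in turn, 8 to 11 of the 14 fell.

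T cell genes fell in 7 of 17 cases, and the ones that fell most were regulatory and activation genes. Foxp3, the transcription factor of regulatory T cells, ran from 5.16 to 7.19 CPM (median 5.77) with imiquimod and from 1.34 to 3.78 CPM (median 2.75) with the drug, without overlap, and fell by 1.19 ± 0.21 (adjusted p 3.29e-05). Ctla4 fell by 1.08 ± 0.20 (adjusted p 5.63e-05) and Icos fell by 1.10 ± 0.17 (adjusted p 8.17e-06), which regulatory and activated T cells share. The constant chain Trbc2 fell by 0.51 ± 0.09 (adjusted p 2.13e-05). The CD3 chains Cd3e (0.08 ± 0.12, adjusted p 0.642) and Cd3g (-0.06 ± 0.15, adjusted p 0.814) and Cd4 (-0.37 ± 0.16, adjusted p 0.0686) did not pass. Granzyme genes also fell (Gzmb -1.45 ± 0.19, adjusted p 6.22e-07, Gzma -1.48 ± 0.32, adjusted p 0.000377), with 2 of 6 tested genes of NK and cytotoxic cells lower. Of 5 B cell genes 2 fell (Cd22 -0.94 ± 0.21, adjusted p 0.00067, Cd79b -0.77 ± 0.23, adjusted p 0.00892), but the median of that list was 0.25. Over all tested genes 16.9% fell and the median was 0.01, and lists this short say little beside that share. Ighm did not pass (0.25 ± 0.21, adjusted p 0.386).

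Langerhans and dendritic cell genes went both ways. Cd207, or langerin, the marker of Langerhans cells, ran from 3.48 to 6.09 CPM with imiquimod, 6.79 to 11.5 CPM with the drug and 21.5 to 24.9 CPM in sham ears, and rose by 0.88 ± 0.13 (adjusted p 2.85e-06). Flt3 fell by 0.58 ± 0.14 (adjusted p 0.00118), Ccr7 fell by 0.61 ± 0.20 (adjusted p 0.0181) and Itgax fell by 0.32 ± 0.10 (adjusted p 0.00955), among 9 tested genes. Of 8 mast cell genes, Hdc, which makes histamine and is also expressed by neutrophils, fell by 1.19 ± 0.23 (adjusted p 0.000191) and the chymase Cma1 fell by 0.24 ± 0.08 (adjusted p 0.0205), while Mcpt4 (-0.13 ± 0.06, adjusted p 0.115) and Cpa3 (-0.18 ± 0.08, adjusted p 0.0793) did not pass.

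Vessel genes fell in 7 of 10 cases (median -0.27). The adhesion molecules Selp, which ran from 17.5 to 24.7 CPM with imiquimod and 7.85 to 11.4 CPM with the drug, and Sele, which bind rolling leukocytes, fell most (Selp -1.07 ± 0.16, adjusted p 6.11e-06, Sele -1.0 ± 0.14, adjusted p 1.13e-06). Vcam1 fell by 0.57 ± 0.10 (adjusted p 6.19e-05) and Icam1 fell by 0.36 ± 0.08 (adjusted p 0.000549). The general endothelial genes Pecam1 (-0.26 ± 0.07, adjusted p 0.00247) and Cdh5 (-0.28 ± 0.08, adjusted p 0.00747) fell by less, and Vwf did not pass (0.01 ± 0.08, adjusted p 0.922). All 5 red cell genes fell (median -0.64), for example Hbb-bs with 63.3 to 140.2 CPM under imiquimod and 49.3 to 93.4 CPM with the drug (-0.64 ± 0.21, adjusted p 0.02), with overlap between the groups in all 5. Their part in the fall of the vessel and blood leukocyte genes was not tested. Of 13 fibroblast and matrix genes, 5 fell and 3 rose: Timp1 fell by 1.20 ± 0.16 (adjusted p 2.9e-06), Mmp3 fell by 1.06 ± 0.14 (adjusted p 2.14e-06) and Pdgfra fell by 0.50 ± 0.06 (adjusted p 3.89e-07), and the collagens Col1a1 (-0.08 ± 0.11, adjusted p 0.642) and Col3a1 (-0.24 ± 0.12, adjusted p 0.129) did not pass.

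The type I interferon response, which TLR7 can start, varied widely between ears of 1 group. Of 20 type I interferon genes, 1 fell (Oas2, -0.84 ± 0.31, adjusted p 0.0385) and 0 rose, with a median of -0.38. Ifit1 ran from 1.24 to 11.4 CPM (median 4.87) with imiquimod and from 2.16 to 10.5 CPM (median 3.32) with the drug, and its difference (-0.23 ± 0.48, adjusted p 0.752) turned to 0.12 without imiquimod library 11. Over the whole list, the median of a library relative to the imiquimod mean ran from -1.23 to 0.95 among imiquimod libraries and from -1.0 to 0.58 among drug libraries. Of 13 tested genes of the interferon gamma response and antigen presentation, 0 passed in edgeR, and the smallest adjusted p belonged to Ciita (-0.28 ± 0.13, adjusted p 0.0876). Cxcl10 (-0.30 ± 0.52, adjusted p 0.706) and H2-Ab1 (-0.11 ± 0.09, adjusted p 0.354) were among the others, and Ifng itself was too low to test. Endosomal Toll-like receptors and their adaptors fell in 5 of 8 cases: Tlr13 fell by 0.99 ± 0.16 (adjusted p 1.5e-05) and Myd88 fell by 0.29 ± 0.07 (adjusted p 0.00129), while Tlr7, the receptor for imiquimod, did not pass (-0.17 ± 0.13, adjusted p 0.323).

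Cell division genes stayed above sham with the drug. Mki67 ran from 178 to 206 CPM (median 192) with imiquimod, 182 to 232 CPM (median 209) with the drug and 45.8 to 63.3 CPM in sham ears. The treated groups overlapped, and the difference did not pass (0.10 ± 0.06, adjusted p 0.183). Of 20 genes of DNA replication and mitosis, 7 fell and 0 rose (median -0.13). Those that fell included Rrm2, a subunit of ribonucleotide reductase (-0.43 ± 0.09, adjusted p 0.000267), and the replication helicase genes Mcm5 (-0.26 ± 0.06, adjusted p 0.00138) and Mcm3 (-0.25 ± 0.07, adjusted p 0.00756). Top2a (-0.06 ± 0.06, adjusted p 0.421), Ccna2 (-0.01 ± 0.06, adjusted p 0.926) and Birc5 (0.01 ± 0.09, adjusted p 0.946) did not pass.

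Metabolic and stress genes changed in part, beside 18.2% of all tested genes that rose and 16.9% that fell. Of 14 glycolysis and hypoxia genes 6 fell (42.9%), led by the glucose transporter Slc2a1 (-0.54 ± 0.08, adjusted p 1.78e-05). Of 16 cholesterol synthesis genes 5 rose (31.2%) and 2 fell (12.5%), with a median of 0.07, close to the 0.01 of all tested genes. Of 12 detoxification genes 5 fell and 3 rose: the glutathione transferase Gsta4 fell by 1.14 ± 0.15 (adjusted p 1.93e-06) and Nqo1 fell by 0.74 ± 0.09 (adjusted p 6.13e-07), while Cyp1a1, a target of the aryl hydrocarbon receptor, rose by 1.39 ± 0.31 (adjusted p 0.000938). Circadian output and glucocorticoid response genes rose in 11 of 14 cases (median 0.69). Hlf ran from 21.5 to 41.9 CPM with imiquimod, 54.5 to 89.7 CPM with the drug and 149 to 195 CPM in sham ears, and rose by 1.28 ± 0.18 (adjusted p 3.83e-06), and Dbp rose by 1.17 ± 0.24 (adjusted p 0.000477). The clock gene Arntl, which peaks at the opposite phase, did not pass (-0.13 ± 0.10, adjusted p 0.337), and the hour of sampling is not given in the sources used here. Immediate early genes such as Fos (0.00 ± 0.54, adjusted p 1) and Egr1 (0.56 ± 0.34, adjusted p 0.208) did not pass, and 3 of 10 genes of that list, all heat shock genes, rose (Hspa1a 0.38 ± 0.06, adjusted p 1.29e-05).

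The 6 ears with the drug were not alike. Relative to the imiquimod mean, the median of the 11 neutrophil genes was -1.78 in drug library 27 and -1.74 in library 30, but -0.76 in library 28 and -0.96 in library 29. The antimicrobial list showed -1.97 in library 30 and -1.53 in library 27 against -0.81 in library 29 and -0.90 in library 28. Suprabasal genes stood at 0.82 in library 30 and at 0.22 in library 29. Libraries 27 and 30 were therefore furthest from imiquimod in both inflammatory lists and libraries 28 and 29 nearest. Libraries 27 and 30 were also the shallowest of the 6 (25.4 and 25.8 M counts) and libraries 28 and 29 the deepest (29.9 and 29.5 M). The part of depth in this order was not tested. In the type I interferon list the order differed, with library 29 highest at 0.58 and library 27 lowest at -1.0. For the neutrophil, antimicrobial and activated keratinocyte lists the least changed drug library still lay below the lowest imiquimod library.

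**Figure D3:**
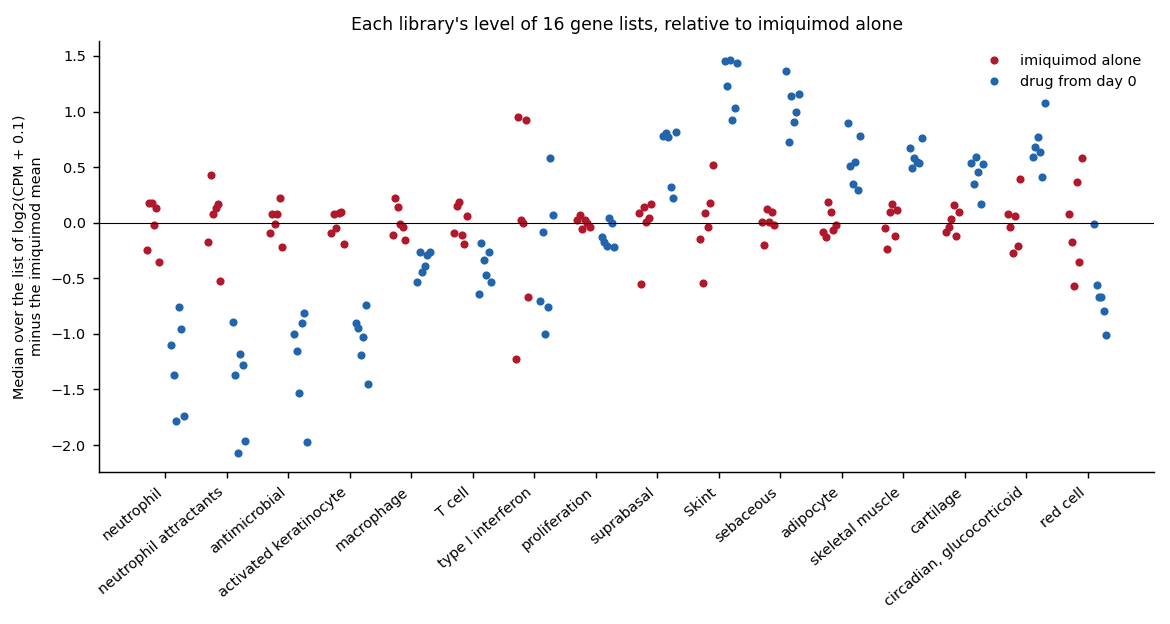
Median over each of 16 gene lists of log2(CPM + 0.1) minus the mean of the imiquimod libraries (y axis) in the 6 imiquimod libraries (red) and the 6 libraries with the drug from day 0 (blue). The groups are apart for the neutrophil, antimicrobial, activated keratinocyte, Skint, sebaceous, adipocyte and skeletal muscle lists and mixed for type I interferon, where imiquimod libraries span -1.23 to 0.95.

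Ears with the drug still differed from sham ears in most genes. Against sham, 13692 genes differed with the drug from day 0 (74.3% of those tested), 6767 higher (36.7%) and 6925 lower (37.6%), and with imiquimod alone 14393 did (78.1%). These 2 comparisons share the sham libraries. All 20 activated keratinocyte genes and all 14 antimicrobial genes were above sham with the drug, as were 9 of 11 neutrophil genes and 20 of 20 cell division genes. Krt6a averaged 2889 ± 546 CPM with the drug against 7335 ± 859 CPM with imiquimod alone and 55.9 ± 17.1 CPM in sham ears (mean ± SD, n = 6). Mmp9 and Il1r2 of the neutrophil list were below sham, Mmp9 at 6.23 to 11.1 CPM with the drug against 11.8 to 18.6 CPM. All 12 muscle, all 11 adipocyte and all 8 Schwann cell genes stayed below sham. Of the suprabasal genes 16 were above and 4 below sham, of the Skint genes 4 were above and 5 below, and of the sebaceous genes 3 were above and 7 below.

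Genes that imiquimod moves were also chosen from libraries outside the start-day experiment. At day 8 of the time course, imiquimod raised 1910 genes by a log2 of at least 1 (10.2% of those tested there) and lowered 2173 by as much (11.6%), of which 1867 and 2006 were tested in the start-day experiment. With the drug from day 0, 965 of the raised genes fell (51.7%, against 16.9% of all tested genes) and 33 rose, with a median of -0.34. Of the lowered genes, 1026 rose (51.1%, against 18.2%) and 9 fell, with a median of 0.45. The other 869 raised and 971 lowered genes did not pass.

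Few genes separated the start on day 0 from the later starts, which does not show that they act alike. No gene differed between the starts on day 0 and day 3 in edgeR at an adjusted p under 0.05 (smallest 0.0828), while 1315 did at an unadjusted p under 0.05 and DESeq2 called 16. Between the starts on day 0 and day 5, edgeR called 4 genes (0.0217% of those tested; 2253 at an unadjusted p under 0.05) and DESeq2 called 196. They included Ctsk, a protease of osteoclasts and fibroblasts, lower with the start on day 0 (-0.38 ± 0.06, adjusted p 0.00662), and the glucocorticoid-induced Klf9 (0.48 ± 0.09, adjusted p 0.0366) and the RNA-binding Rbm24 of muscle (0.44 ± 0.08, adjusted p 0.0366), both higher. Klf9 ran from 47 to 70.4 CPM with the start on day 0, 34.2 to 51.2 CPM with day 5 and 30.6 to 36 CPM with imiquimod alone.

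Beside imiquimod alone, 6326 genes were called for the start on day 3 (34.3%; 18% higher, 16.4% lower) and 5115 for day 5 (27.7%; 15% higher, 12.7% lower), in comparisons that share the same 6 imiquimod libraries with the start on day 0. Krt6a stood at -1.34, -1.36 and -1.13 for the starts on day 0, 3 and 5, S100a9 at -1.24, -1.13 and -1.06, and Il17f at -1.18, -1.04 and -0.99. Ccr6 stood at -1.20, -0.67 and -0.67, and Il36a at -0.35, -0.08 and -0.01. For none of these 5 genes was the difference between the start on day 0 and either later start past the threshold. Macrophage genes fell in 10, 9 and 3 of 14 cases in the same order, and circadian and glucocorticoid genes rose in 11, 11 and 4 of 14, differences between counts that were not tested. The labels of the later starts carry treatment times of day 5 and day 3, against day 8 here. Whether those ears were sampled on another day is not stated, and start day and labelled time cannot be told apart.

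The same contrast at day 8 of the time course shares no libraries with this one. There edgeR called 293 of 18780 genes between drug and imiquimod (1.56%; 2679 at an unadjusted p under 0.05), 230 higher (1.22%) and 63 lower (0.335%). Of the 229 higher genes also tested in the start-day experiment, 193 rose with the drug from day 0 (84.3%, against 18.2% of all tested genes) and 0 fell. Of the 63 lower genes, 39 fell (61.9%, against 16.9%) and 0 rose. The higher genes called in both made up 5.75% of all 3357 that rose with the drug from day 0, and the lower ones 1.25% of the 3109 that fell.

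Genes of epidermal differentiation and of the sebaceous gland were among those shared. Krt2 rose in both, by 1.15 in the time course and 2.41 here. Krt24 changed by 2.21 and 2.99, Flg2 by 1.80 and 2.46, and Far2 by 0.63 and 1.58. Scart2 fell in both (-1.39 and -1.16). Csf3r ran from 22.3 to 40.6 CPM with imiquimod and 20 to 61.7 CPM with the drug at day 8 of the time course, and did not pass (-0.01 ± 0.42, adjusted p 0.995).

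**Figure D4:**
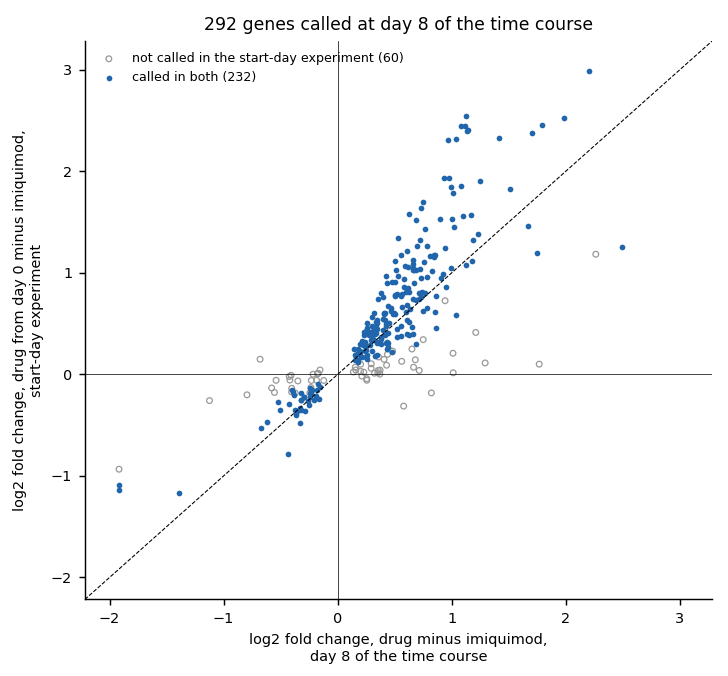
Log2 fold change of drug over imiquimod at day 8 of the time course (x axis) against that of the drug from day 0 in the start-day experiment (y axis) for the 292 genes called in the time course and tested in both, with the dashed line marking equal change. The 232 genes called in both (blue) share their direction, 193 higher and 39 lower in both.

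A joint fit tested the difference between the contrasts directly and called 590 of 18999 genes (3.11%; DESeq2 called 1021), 308 in the direction of a higher level with the drug from day 0 (1.62%) and 282 in the other (1.48%). The log2 change was lower in the start-day experiment for 7 of 11 neutrophil genes, 5 of 20 activated keratinocyte genes and 4 of 17 cytokines. At day 8 of the time course edgeR called 0 genes of these 3 lists lower, and their medians there were 0.05, -0.14 and 0.20. The differences included Csf3r (-1.44 ± 0.35, adjusted p 0.0213), Il1b (-1.80 ± 0.50, adjusted p 0.0392), Saa3 (-1.92 ± 0.51, adjusted p 0.0321) and Krt6a (-1.03 ± 0.27, adjusted p 0.0326). It was higher in the start-day experiment for 3 of 12 sebaceous genes. None of the Ccr6 and Ccl20 pair, the 9 tested genes of the IL-17-type gamma delta T cell list or the 17 T cell genes differed between the experiments at an adjusted p under 0.05. The time course libraries were shallower (14.5 to 23.7 M counts at day 8 for drug and imiquimod), and the experiment and any difference in dosing cannot be told apart.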

How the data were processed

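RNA of ear punches was sequenced from libraries made with an mRNA kit, per the labels' protocols. The authors deposited estimated counts per gene (by salmon, as the deposited tables are named; GRCm39, per the submitters' processing notes). Software versions and the strand setting of the counting were not given in the sources used here. The deposited tables hold 56941 genes, and every column of samples was used.

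Estimated counts were rounded to whole numbers. The 30 libraries of the start-day experiment were filtered by expression, TMM-scaled and fitted in 1 model with edgeR 4.0.16 (robust quasi-likelihood test, Benjamini-Hochberg adjustment over all tested genes, R 4.3.3). The time course was fitted apart, and a joint fit took all 30 start-day libraries with the day 8 libraries of the time course. Alternatives used DESeq2 1.42.0, limma 3.58.1, other scalings and filters, thinned counts and 1 library left out. In simulated counts for this comparison, with 50 genes changed at each size and 18195 genes run, 60% were called at 1.25-fold, 82% at 1.5-fold, 88% at 2-fold and 100% at 4-fold, with 7 false calls. The changed genes were drawn only from genes above a count floor, and were few beside the 35.1% of genes called in the data. These rates therefore do not cover scarce genes or so wide a change.

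The members and gene lists were chosen with earlier results of these data known. Genes are named by a fixed panel of 20, the 12 highest and 12 lowest changes at a mean log2 CPM of at least 1, up to 4 called members of a list and the smallest p-values of the differences; other list members were named after their values were seen. Some genes that the naming rule would name are not reported here.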

Additional observations from a re-analysis of the deposited data

Results flagged for a closer look

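In 3 of 90 tests for an extreme value among 6 libraries, 1 library stood far from the other 5, where chance alone flags about 1 in 20. The tests took log2(CPM + 0.1) of 43 genes and the positions on both principal components, in the imiquimod group and in the drug group. Ccl20 was 3.09 CPM in imiquimod library 12, against 7.81 to 12.9 CPM in the others. Nrg1 was 12.9 CPM in the same library, against 19.8 to 25.1 CPM. Krtap19-2 was 0.569 CPM in imiquimod library 8, against 3.72 to 9.57 CPM.

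The effect of the drug differed between the start-day experiment and day 8 of the time course for the genes below (edgeR, joint fit, adjusted p under 0.05). Inflammatory genes with the lower log2 fold change in the start-day experiment, given by the difference between the experiments, were Il1b (-1.8, adjusted p 0.0392), Csf3r (-1.44, 0.0213), Krt6a (-1.03, 0.0326), Saa3 (-1.92, 0.0321), Ptx3 (-2.02, 0.0286), Defb3 (-1.38, 0.0287), Ifitm1 (-1.57, 0.00939) and Cd300lf (-1.65, 0.0312). Il1b changed by 0.46 in the time course and Ifitm1 by 0.03, where the start-day values were -1.35 and -1.55. Entpd3 (-1.15) and Nrg1 (-1.22) differed likewise. Cfap157 (1.37) and Hsd3b6 (1.35) had the higher change in the start-day experiment.

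The smallest p-values belonged to genes with smaller changes. Sox21, a transcription factor of the hair follicle, differed by 0.74 (adjusted p 0.00488), Colec12 by 0.43, Bcl11a by 0.53 and Cilp, a cartilage matrix gene, by 0.78. Esd (-0.5), the early response gene Ier3 (-1.01), the epithelial chemokine Cxcl14 (-1.1), the ferritin chain Fth1 (-0.41), Hopx (-0.65) and Macf1 (-0.32) differed the other way.

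Between the drug starts on day 0 and day 5, Ctsk differed by -0.38, Klf9 by 0.48 and Rbm24 by 0.44.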

How the results depend on the processing

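No paired analysis was possible because the libraries of each group carry their own numbers and no number is shared between the compared groups. The main count of 6466 genes ran from 5759 to 6582 with 1 library left out (2848 to 3435 higher, 2774 to 3147 lower). Requiring a log2 change of at least 1 left 577 genes, 321 higher and 256 lower. DESeq2 called 16 genes between the starts on day 0 and day 3, 196 between day 0 and day 5, 525 at day 8 of the time course and 1021 for the difference between experiments, where edgeR called 0, 4, 293 and 590. Without a filter on low counts edgeR called 16, 147 and 215 for the latter 3. The cause of these shifts was not tested. With other scaling factors (RLE) the main comparison held 3123 higher and 3400 lower genes, where TMM gave 3357 and 3109. Of all the counts and shares under alternative settings, those above included, 81 stayed within 1.5 times the value reported and 10 did not. For the 20 panel genes, 368 values kept direction and call, 6 lost the call (Krt16 once, Krt77 5 times), 4 gained it (Il23a), and Ifit1 turned from -0.23 to 0.12 without imiquimod library 11 (-0.66 to 0.12 over all libraries left out). Depth limits genes such as Ly6g, Csf2 and Ifng, which were too low to test.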
